A study of Mus musculus with 24 samples.

Results

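Uncx, Nkx2-1, Six6, Six3, Sim1, Otp, Nr5a1, Fezf1, Lhx1 and Lhx9 are 10 transcription factor genes of hypothalamic nuclei, and all 10 were found by name among the 45706 genes of the count table. Uncx was chosen by its measured values, as one of the genes with the smallest p for PICK1i against saline, and the other 9 were named with it, so values of that contrast are given as a description. The libraries were made from poly(A) RNA of whole hypothalamus of male mice with diet-induced obesity, with a mean body weight of 53 g and kept in pairs. One group (PSD-95i, 8 libraries) received UCCB01-147, an inhibitor of the synaptic scaffold protein PSD-95, at 25 mg/kg. A second (PICK1i, 8 libraries) received mPD5, an inhibitor of the PDZ domain protein PICK1, at 56 mg/kg. The third (saline, 8 libraries by their labels, although the protocol gives 6 mice) received isotonic saline. All animals were injected daily for 5 days and killed 2 hours after the last injection, and the sources used here do not name strain or age. Which libraries came from mice of 1 cage is not labelled, so errors and p-values measure only the spread between these libraries.

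Hypothalamic nuclei are set apart during development by transcription factors, and many of these stay on in the adult neurons of the nucleus they helped to form. Nr5a1 (steroidogenic factor 1) and Fezf1 are needed for the ventromedial nucleus, and Sim1 and Otp for the neuroendocrine neurons of the paraventricular and supraoptic nuclei. Loss of 1 copy of Sim1 causes obesity in mice. Nkx2-1 specifies the ventral hypothalamus, Six3 and Six6 act in the anterior forebrain, eye and pituitary, and Lhx1 is needed for coupling of the cells of the suprachiasmatic nucleus. Lhx9 is a LIM homeodomain gene tied to hypocretin neurons of the lateral hypothalamus, and Uncx is a paired-type homeodomain gene best known for patterning the vertebral column.

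In the GENCODE M21 annotation of GRCm38 all 10 are protein-coding genes. Uncx (ENSMUSG00000029546) lies at chr5:139543494-139548179 on the plus strand, Nkx2-1 (ENSMUSG00000001496) at chr12:56531958-56536908 on the minus strand, Six6 (ENSMUSG00000021099) at chr12:72939892-72944899 on the plus strand and Six3 (ENSMUSG00000038805) at chr17:85613608-85629302 on the plus strand. Sim1 (ENSMUSG00000019913) lies at chr10:50894754-50989152 and Otp (ENSMUSG00000021685) at chr13:94875602-94885130, both on the plus strand. Nr5a1 (ENSMUSG00000026751, chr2:38692656-38714542), Fezf1 (ENSMUSG00000029697, chr6:23245044-23248362), Lhx1 (ENSMUSG00000018698, chr11:84518284-84525535) and Lhx9 (ENSMUSG00000019230, chr1:138825186-138848577) are on the minus strand. Exons of Six6 overlap 4930447C04Rik and exons of Six3 overlap Six3os1 and Gm28528, each on the opposite strand. Use of strand in counting is not given in the sources used here, so reads of Six6 and Six3 and of these partners cannot be told apart and both genes are uncertain in level.

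Promoter windows of RefSeq (GRCm38.p6), from 250 bases before to 50 bases after the start site, were given for 9 of the 10 genes, and 4 of them are shown. Uncx is shown because it led the choice of the genes, Nkx2-1 because it alone held the second motif below, and Six6 and Fezf1 because their levels moved with that of Nr5a1. Capitals mark TAATTA, the core bound by paired-type and LIM homeodomain proteins, and AGGTCA, the half-site of nuclear receptors such as Nr5a1, or its reverse complement TGACCT. Both strands were searched, and TAATTA reads the same on both.
Uncx (chr5:139543648-139543947, plus strand): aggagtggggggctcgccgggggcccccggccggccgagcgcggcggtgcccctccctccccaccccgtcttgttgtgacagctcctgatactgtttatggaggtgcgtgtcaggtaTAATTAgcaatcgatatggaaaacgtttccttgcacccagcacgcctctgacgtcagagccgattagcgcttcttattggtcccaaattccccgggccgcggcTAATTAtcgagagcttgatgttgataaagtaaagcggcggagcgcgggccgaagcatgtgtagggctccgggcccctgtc
Nkx2-1 (chr12:56536859-56537158, minus strand): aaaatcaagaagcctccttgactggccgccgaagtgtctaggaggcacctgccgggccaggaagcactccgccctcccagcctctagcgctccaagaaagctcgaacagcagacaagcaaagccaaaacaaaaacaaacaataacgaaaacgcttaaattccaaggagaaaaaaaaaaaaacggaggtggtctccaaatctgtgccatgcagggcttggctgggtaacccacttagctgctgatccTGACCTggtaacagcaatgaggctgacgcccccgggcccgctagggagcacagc
Six6 (chr12:72939632-72939931, plus strand): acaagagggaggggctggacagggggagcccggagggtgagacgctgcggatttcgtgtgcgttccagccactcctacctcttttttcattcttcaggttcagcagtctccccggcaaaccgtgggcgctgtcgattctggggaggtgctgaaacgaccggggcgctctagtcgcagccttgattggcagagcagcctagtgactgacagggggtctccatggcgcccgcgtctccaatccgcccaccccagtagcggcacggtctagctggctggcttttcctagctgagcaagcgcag
Fezf1 (chr6:23248215-23248514, minus strand): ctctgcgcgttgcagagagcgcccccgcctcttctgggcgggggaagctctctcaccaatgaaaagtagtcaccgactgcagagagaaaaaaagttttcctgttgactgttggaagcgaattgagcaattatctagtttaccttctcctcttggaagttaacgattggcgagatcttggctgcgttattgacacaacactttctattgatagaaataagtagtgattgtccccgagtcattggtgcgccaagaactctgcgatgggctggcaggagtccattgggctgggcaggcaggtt
TAATTA stood 2 times in the Uncx window and in none of the other 8, against 5.29% of all 32851 windows of this length. AGGTCA stood 1 time in the Nkx2-1 window and in none of the other 8, against 16.3% of all windows. The ratio of observed to expected CpG dinucleotides was above the median of all windows (0.384) in 8 of the 9, from 0.559 in Nkx2-1 to 0.961 in Lhx1. The exception was Lhx9, at 0.261.

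Library totals lay between 4762703 and 9228858 estimated counts, with a median of 7628245, and no pair of libraries held the same values. A set of 3 libraries stood apart from the others. Saline replicates 2 and 3 held 62844 and 38994 CPM (counts scaled to library size by TMM) in the sum of 11 anterior pituitary markers, against at most 54.9 in every PSD-95i library, 15.4 in every PICK1i library and 21.7 in the other 6 saline libraries. Their sums over 5 pan-neuronal markers were the lowest of all libraries, at 2076 and 2309 CPM. PICK1i replicate 6 held 428 CPM in the sum of 8 cortical and hippocampal markers, against 23.9 to 35.0 in the other 7 PICK1i libraries, at most 37.9 in PSD-95i and at most 129 in saline. The 129 CPM was that of saline replicate 6, which stays among the 21 below, and the next saline library held 57.1 CPM. PICK1i replicate 6 also held the lowest sum of 6 paraventricular and supraoptic markers, 563 CPM. Mitochondrial genes took 13.5% to 16.6% of counts in 4 PICK1i libraries (1, 2, 5 and 6) and 7.88% to 11.2% elsewhere. Results are given over all 24 libraries and over the 21 without saline replicates 2 and 3 and PICK1i replicate 6. PICK1i replicates 1, 2 and 5 stayed among the 21. Avp, Oxt, Hcrt and Pmch were above 0 CPM in each library. Any share of hypothalamus would meet this, so it does not show how clean a dissection was. In PICK1i replicate 6 Avp stood at 92.2 CPM, against 270 to 608 in the other PICK1i libraries. Oxt stood at 40.1 CPM there, against 124 to 263.

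On a scale per transcript length (TPM, transcript abundance as a share of the library), Otp was the most abundant of the genes, at 58.4 ± 12.4 TPM, followed by Fezf1 at 26.4 ± 7.1 and Six3 at 24.8 ± 5.6 TPM (SD, n = 24). These 3 lay above the median of the tested genes, 17.5 TPM. Nr5a1 (14.9 ± 4.7), Nkx2-1 (12.2 ± 3.3), Six6 (11.6 ± 9.7), Uncx (7.89 ± 2.28) and Lhx1 (6.76 ± 1.71 TPM) came next. Sim1 (3.37 ± 0.89) and Lhx9 (2.14 ± 1.27 TPM) were the lowest. Only 3 steps of this order held in each of the 24 libraries: Otp above Fezf1, Six3 above Nr5a1, and Lhx1 above Sim1. Neighbours within the middle of the order were not separated, since Six6 exceeded Uncx in 13 of 24 libraries and Fezf1 exceeded Six3 in 17 of 24.

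**Figure D1:**
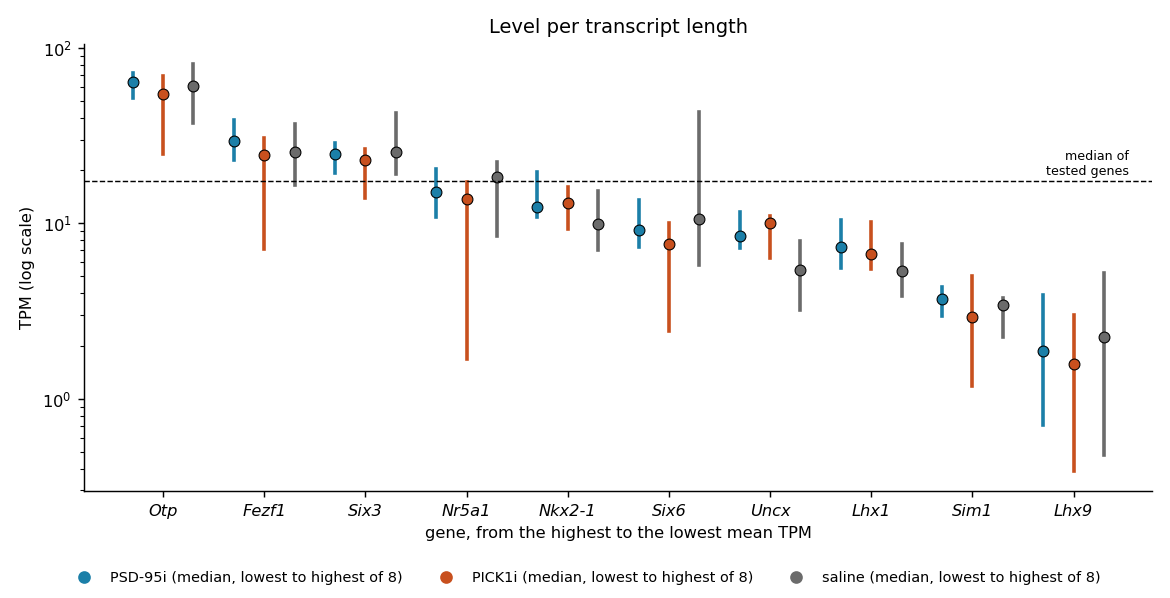
Level of the 10 genes in TPM (log axis), with the median of 8 libraries as a point and the lowest to highest library as a line for PSD-95i, PICK1i and saline. Otp lay highest in all groups, and the wide lines of Six6 in saline and of Nr5a1 in PICK1i each come from the libraries that stood apart.

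Most of the genes were counted through 1 main transcript. Fezf1, Sim1 and Six6 had a single counted transcript each, and the main transcript of Otp held 99.6% and that of Lhx1 97.2% of the gene's estimated counts. The longer, 3-exon transcript of Uncx held 88.8% ± 4.2 in PSD-95i, 92.0% ± 2.7 in PICK1i and 89.9% ± 6.0 in saline (SD, n = 8 each), a difference within the spread between libraries. Nkx2-1 was split between a 2-exon and a 3-exon transcript, and the 2-exon form held 67.0% ± 3.2 in PSD-95i, 68.8% ± 5.0 in PICK1i and 67.0% ± 5.5 in saline.

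Uncx was measured at 8.00 to 12.9 CPM in PSD-95i libraries (median 9.34) and at 9.02 to 15.3 in PICK1i libraries (median 11.7), against 4.01 to 9.44 CPM in saline libraries (median 6.48). Every PSD-95i and every PICK1i library lay above the saline median, and 3 of 8 PSD-95i and 7 of 8 PICK1i libraries exceeded every saline library. The ranges still overlapped, through saline replicate 5 (9.44 CPM). The log2 fold change of Uncx was 0.59 ± 0.14 (SE) for PSD-95i against saline, with an unadjusted p of 0.000337 and an adjusted p of 0.310 by the edgeR quasi-likelihood test over all genes, so it did not pass. Without the 3 libraries it was 0.53 ± 0.15 (adjusted p = 1.00), and leaving out 1 library at a time gave adjusted p from 0.071 to 0.906. For PICK1i against saline, the contrast on which Uncx was chosen, it was 0.85 ± 0.14 over 24 libraries and 0.73 ± 0.15 over 21, and 0.78 without the 4 PICK1i libraries of high mitochondrial share. The direct difference of PSD-95i from PICK1i was -0.26 ± 0.14 (adjusted p = 0.250) over 24 libraries and -0.20 ± 0.13 (adjusted p = 0.346) over 21. Both comparisons share libraries with the one that chose Uncx. In bulk tissue, fewer cells of a type and less RNA per cell cannot be told apart, here and in every result that follows.

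Nkx2-1 and Lhx1 lay on the same side of saline as Uncx in both inhibitor groups. Nkx2-1 was measured at 13.2 to 23.1 CPM in PSD-95i (median 14.9), 10.8 to 23.05 in PICK1i (median 17.1) and 9.38 to 18.7 in saline (median 12.1). All 8 PSD-95i libraries were above the saline median, but only 2 were above the highest saline library. Its log2 fold change for PSD-95i against saline was 0.44 ± 0.16 (adjusted p = 0.361), and 0.33 ± 0.16 without the 3 libraries (adjusted p = 1.00). Lhx1 was measured at 10.4 to 18.7 CPM in PSD-95i (median 12.8), 9.02 to 19.1 in PICK1i (median 14.4) and 7.99 to 13.3 in saline (median 9.96). Here 4 of the 8 PSD-95i libraries exceeded every saline library, with a log2 fold change of 0.38 ± 0.15 (adjusted p = 0.396), and 0.34 ± 0.15 over 21 libraries (adjusted p = 1.00). The corresponding PICK1i values, given as a description, were 0.46 ± 0.16 for Nkx2-1 and 0.42 ± 0.15 for Lhx1, and 0.28 ± 0.16 and 0.30 ± 0.16 over 21 libraries. The inhibitors did not differ from each other past the threshold in either gene, at -0.025 ± 0.16 for Nkx2-1 (adjusted p = 0.945) and -0.039 ± 0.15 for Lhx1 (adjusted p = 0.907), and at 0.044 ± 0.15 and 0.036 ± 0.14 over 21 libraries. A list of 5 mammillary and posterior hypothalamic markers (Foxb1, Foxa1, Barhl1, Lmx1b and Irx5) summed to 33.7 to 55.0 CPM in PSD-95i, 31.2 to 63.7 in PICK1i and 13.2 to 54.1 CPM in saline, and none of the 5 was at 0 in all libraries of a group. The part of these cells in the values of Uncx, Nkx2-1 and Lhx1 was not tested.

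Six6 had the widest range of CPM of the 10 genes in saline, whereas Lhx9 had the widest as a ratio of highest to lowest library. It was measured at 14.7 to 28.4 CPM in PSD-95i (median 18.4), 5.76 to 24.6 in PICK1i (median 15.46) and 11.99 to 95.9 CPM in saline (median 21.8). The high end of saline was replicates 2 and 3, at 92.9 and 95.9 CPM, which are 4.40 and 4.54 times the median of the other 6 saline libraries (11.99 to 26.4 CPM). The log2 fold change for PSD-95i against saline was -0.98 ± 0.35 (adjusted p = 0.356), and -0.028 ± 0.16 without the 3 libraries (adjusted p = 1.00). For PICK1i against saline it was -1.21 ± 0.36, and -0.15 ± 0.17 without them. Without the libraries that stood apart, both values were therefore within 1 SE of 0. The partner gene 4930447C04Rik was also highest there, at 42.0 and 55.4 CPM, against 14.1 to 35.6 in the other saline libraries.

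Six3 followed Six6 in the same libraries at a smaller scale. It was measured at 27 to 40.4 CPM in PSD-95i (median 35.5), 23.7 to 41.6 in PICK1i (median 37.1) and 27.4 to 66.8 in saline (median 36.5). Saline replicates 2 and 3 held 55.1 and 66.8 CPM, and the other 6 saline libraries held at most 39.1. Its log2 fold change for PSD-95i against saline was -0.22 ± 0.15 (adjusted p = 0.575) over 24 libraries and turned to 0.047 ± 0.10 (adjusted p = 1.00) over 21. As a description, the value for PICK1i against saline was -0.21 ± 0.15 over 24 libraries and likewise turned, to 0.11 ± 0.10 over 21. Between the inhibitors it was -0.0096 ± 0.15 (adjusted p = 0.981), and -0.063 ± 0.093 over 21 libraries.

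**Figure D2:**
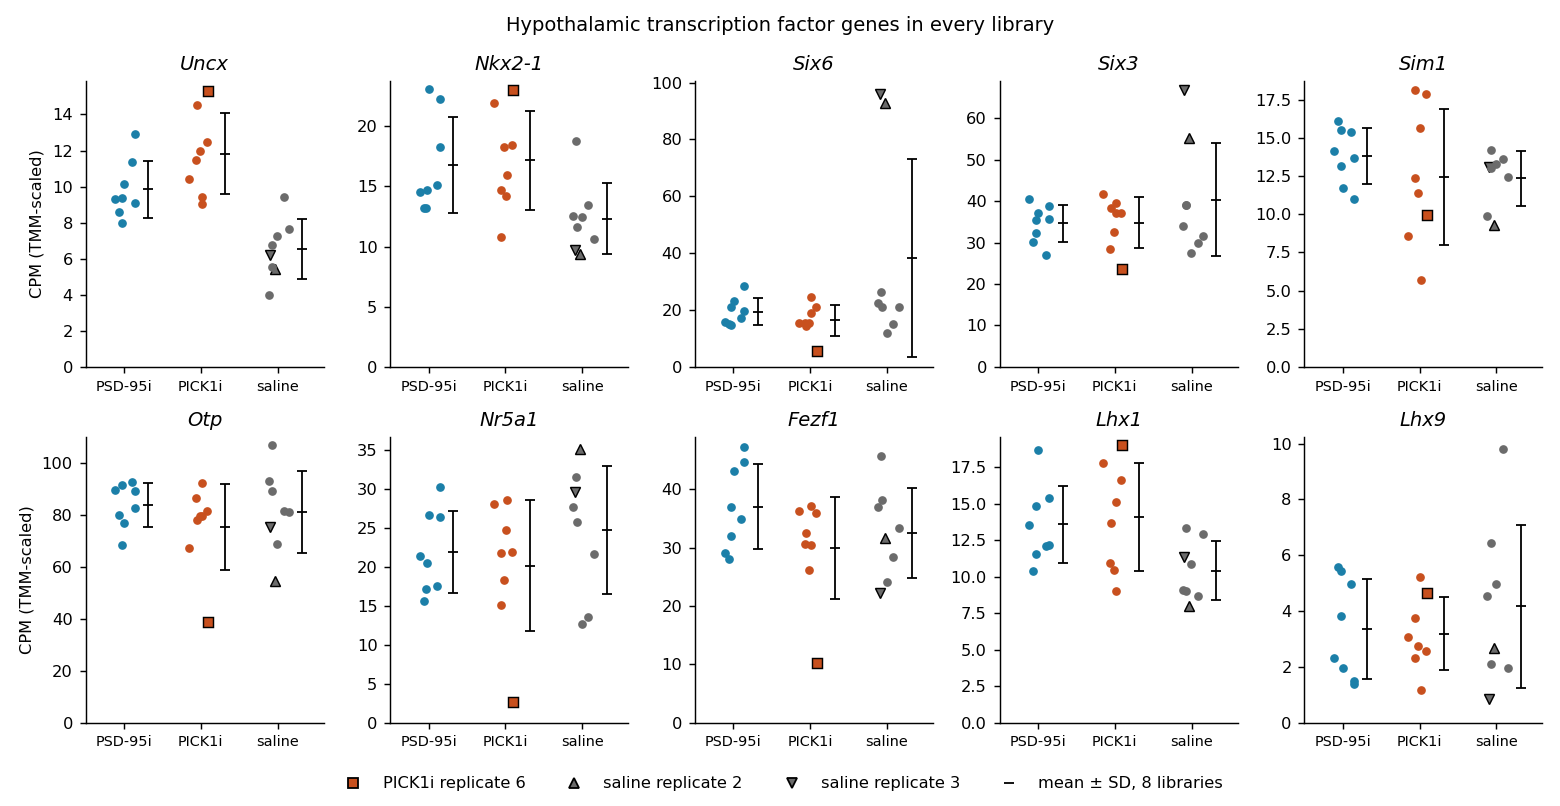
CPM of each gene in every library (linear axes from 0), with PSD-95i, PICK1i and saline from left to right and the mean ± SD of 8 libraries beside the points. PICK1i replicate 6 (square) lay below all other libraries for Six6, Six3, Otp, Nr5a1 and Fezf1, and saline replicates 2 and 3 (triangles) lay above all others for Six6 and Six3.

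The 2 genes of the ventromedial nucleus overlapped widely between the groups and were lowest in the same library. Nr5a1 was measured at 15.6 to 30.2 CPM in PSD-95i (median 20.95), 2.66 to 28.5 in PICK1i (median 21.8) and 12.6 to 35.1 in saline (median 26.7). Fezf1 was measured at 28.1 to 47.2 CPM in PSD-95i (median 35.9), 10.2 to 37.1 in PICK1i (median 31.5) and 22.3 to 45.6 in saline (median 32.5). The lowest value of both was PICK1i replicate 6, which was 8.23-fold under the median of the other PICK1i libraries in Nr5a1 and 3.18-fold under it in Fezf1. Against saline, PSD-95i gave a log2 fold change of -0.17 ± 0.25 for Nr5a1 (adjusted p = 0.809) and 0.18 ± 0.17 for Fezf1 (adjusted p = 0.692). Over 21 libraries these were -0.017 ± 0.19 and 0.098 ± 0.13. As a description, Nr5a1 for PICK1i against saline was at -0.28 ± 0.25 over 24 libraries and at 0.016 ± 0.20 over 21. Against PICK1i, PSD-95i gave 0.11 ± 0.25 for Nr5a1 (adjusted p = 0.833) and 0.29 ± 0.17 for Fezf1 (adjusted p = 0.298), and 3 of 8 PSD-95i libraries exceeded every PICK1i library in Fezf1. Over 21 libraries these were -0.033 ± 0.18 and 0.18 ± 0.12, and leaving out PICK1i replicate 6 alone gave -0.038 for Nr5a1 and 0.17 for Fezf1.

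Otp and Sim1, the genes of the neuroendocrine nuclei, varied with little relation to each other (r = 0.31 over 24 libraries and 0.20 over 21, within groups). Otp was measured at 68.3 to 92.6 CPM in PSD-95i (median 85.8), 38.6 to 92.3 in PICK1i (median 79.4) and 54.5 to 106.7 in saline (median 81.2), and its lowest 2 libraries were PICK1i replicate 6 and saline replicate 2. Its log2 fold change for PSD-95i against saline was 0.049 ± 0.13 (adjusted p = 0.907), and 0.15 ± 0.13 against PICK1i (adjusted p = 0.499). Over 21 libraries these were -0.048 ± 0.083 and 0.057 ± 0.080, each within 1 SE of 0. Sim1 was measured at 10.98 to 16.1 CPM in PSD-95i, 5.71 to 18.1 in PICK1i and 9.26 to 14.2 in saline. PICK1i thus held both the lowest library (replicate 1) and the highest (replicate 7) of Sim1, and neither was one of the 3 libraries that stood apart. The log2 fold change of Sim1 was 0.17 ± 0.16 for PSD-95i against saline (adjusted p = 0.700) and 0.13 ± 0.16 against PICK1i (adjusted p = 0.659), and 0.12 ± 0.17 and 0.088 ± 0.16 over 21 libraries.

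Lhx9 had the lowest counts of the genes, 5 to 80 per library, and its groups overlapped over most of their range. It was measured at 1.37 to 5.57 CPM in PSD-95i, 1.18 to 5.22 in PICK1i and 0.837 to 9.81 CPM in saline. Saline held both its lowest library (replicate 3) and its highest (replicate 5). The log2 fold change was -0.30 ± 0.37 for PSD-95i against saline (adjusted p = 0.769) and 0.083 ± 0.38 against PICK1i (adjusted p = 0.925). Over 21 libraries the value against saline was -0.54 ± 0.34 for PSD-95i (adjusted p = 1.00) and, as a description, -0.70 ± 0.36 for PICK1i. Over 24 libraries PICK1i gave -0.38 ± 0.37. Leaving out saline replicate 5 alone gave 0.018 for PSD-95i against saline (adjusted p = 0.989) and -0.068 for PICK1i, so the differences over 24 libraries rested on this library.

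**Figure D3:**
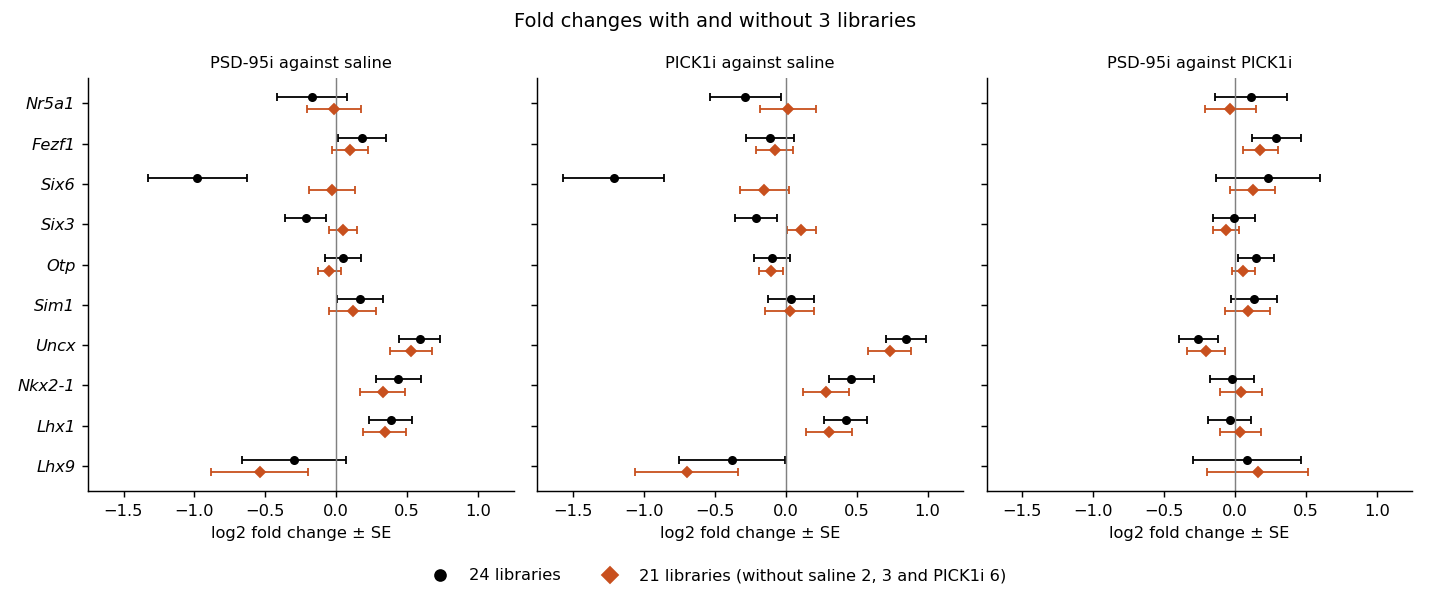
Log2 fold changes with SE for the 10 genes in each comparison, over all 24 libraries (circles) and over 21 (diamonds). Six6 lay at -0.98 and -1.21 against saline over 24 libraries and at -0.028 and -0.15 over 21, and Uncx lay at 0.59 and 0.85 over 24 libraries and at 0.53 and 0.73 over 21.

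None of the 10 genes passed an adjusted p of 0.05 for PSD-95i against saline, where 0 of 15667 tested genes passed (0%), and DESeq2 called 0 of the 10 and 0 of all genes. At an unadjusted p under 0.05 there were 4 of the 10 (Uncx, Six6, Nkx2-1 and Lhx1) and 1719 of all 15667 genes. Uncx was chosen on a contrast with the same saline libraries, so nothing is read from this count. Without the 3 libraries there were 3 of the 10, with no count over all genes to set beside them. The median log2 fold change of the 10 was 0.11, and 0.049 without Uncx, against -0.0031 over all tested genes, and that of the 10 was 0.072 over 21 libraries. For PSD-95i against PICK1i, edgeR called 0 of the 10 and 0 of all genes (0%), with 0 and 3789 at an unadjusted p under 0.05. DESeq2 called 0 of the 10 and 1260 genes (8.04%) there, and gave no adjusted p for Lhx9. The median was 0.097 for the 10, 0.051 for them over 21 libraries and -0.010 for all genes. For PICK1i against saline, 2 of the 10 (Uncx higher and Six6 lower) were past the threshold among 1434 genes (9.15%), and 3 (with Nkx2-1) among 1964 by DESeq2 (12.5%). Since that contrast chose the genes, nothing is read from these counts. The Six6 call was lost without any 1 of PICK1i replicates 2, 5 or 6 or saline replicates 2 or 3, which leaves 1 gene. Its log2 fold change was then -1.19, -1.18 and -1.10 without PICK1i replicates 2, 5 and 6, and -0.88 without either saline replicate. Without PICK1i replicate 7, 4 of the 10 genes were past the threshold. No count over all genes is set beside these 4, so nothing is read from them. Without the 3 libraries none of the 10 was past it in any comparison, with 0 (0%), 1 (0.00633%) and 3 (0.019%) of 15796 genes called for PSD-95i against saline, PSD-95i against PICK1i and PICK1i against saline.

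**Figure D4:**
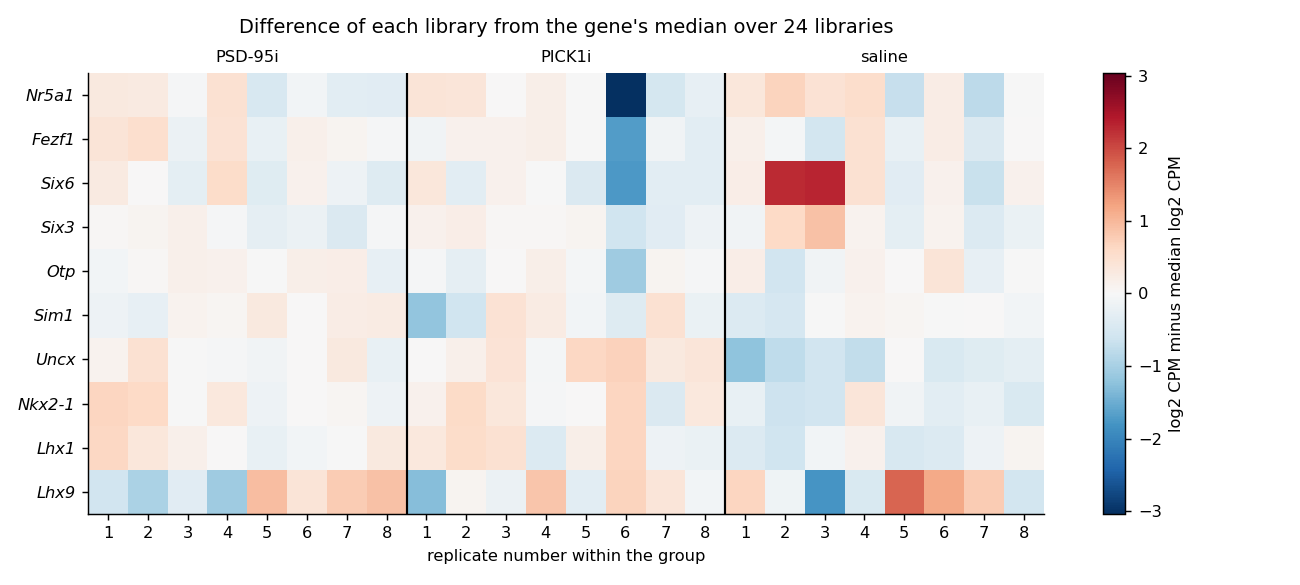
Difference of log2 CPM from the gene's median over 24 libraries, by gene (rows) and library (columns), with PSD-95i, PICK1i and saline from left to right. PICK1i replicate 6 was low in the upper 5 rows and high in Uncx, Nkx2-1 and Lhx1, and saline replicates 2 and 3 were high in Six6 and Six3.

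PICK1i replicate 6 lay at the low end of some of the genes and at the high end of others. It was below each of the 21 libraries that did not stand apart in Six6 (5.76 CPM), Six3 (23.7), Otp (38.6), Nr5a1 (2.66) and Fezf1 (10.2 CPM). It was above each of them in Uncx (15.3) and Lhx1 (19.1 CPM), and within their range in Nkx2-1, Sim1 and Lhx9. The same library held the highest sum of 3 lateral hypothalamic markers, 928 CPM against 377 to 607 in the other PICK1i libraries, and the lowest sum of 8 tanycyte markers, 63.2 CPM against 105 to 165. Neither list moved as a whole. Hcrt and Pmch were above the other PICK1i libraries, whereas Qrfp was below them, at 2.44 CPM. Rax, Col23a1, Crym, Gpr50 and Scn7a were below them, whereas Lhx2 (16.4 CPM) and Dio2 (22.4 CPM) were above and Adm was within their range. The sum of 5 pan-neuronal markers in PICK1i replicate 6 was the highest, at 4258 CPM. The part of the dissected region in these values was not tested.

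Saline replicates 2 and 3 differed from the rest in fewer genes. Replicate 2 lay above the 21 libraries in Six6, Six3 and Nr5a1 and below them in Nkx2-1, Otp and Lhx1. Replicate 3 lay above them in Six6 and Six3 and below them in Nkx2-1, Fezf1 and Lhx9. Six6, Six3 and Nr5a1 are known from the pituitary as well as the hypothalamus, and the part of pituitary RNA in their values was not tested. Uncx lay within the range of the 21 in both libraries, at 5.44 and 6.19 CPM.

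Within groups, the genes varied together in blocks, described by Pearson r of log2 CPM deviations from the group means. The libraries differed in depth and in their sums of pituitary and cortical markers, and the part of these in r was not tested. Nr5a1 and Fezf1 gave r = 0.84 over 24 libraries and 0.83 over 21. Six6 joined them more closely without the 3 libraries, with r = 0.82 to Nr5a1 and 0.76 to Fezf1 over 21, against 0.71 and 0.34 over 24. For Six6 and Six3 the order was the reverse, 0.85 over 24 libraries and 0.47 over 21. Otp and Fezf1 likewise gave 0.71 over 24 and 0.37 over 21. Nkx2-1 and Lhx1 gave 0.60 and 0.57, and neither varied closely with Uncx, whose r to Nkx2-1 was 0.25 over 24 and 0.11 over 21, and to Lhx1 0.26 and 0.13. Lhx9 gave negative values to Nr5a1 (-0.51 over 24 libraries and -0.64 over 21) and Six6 (-0.64 and -0.60), and smaller ones to Fezf1 (-0.21 and -0.44).

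**Figure D5:**
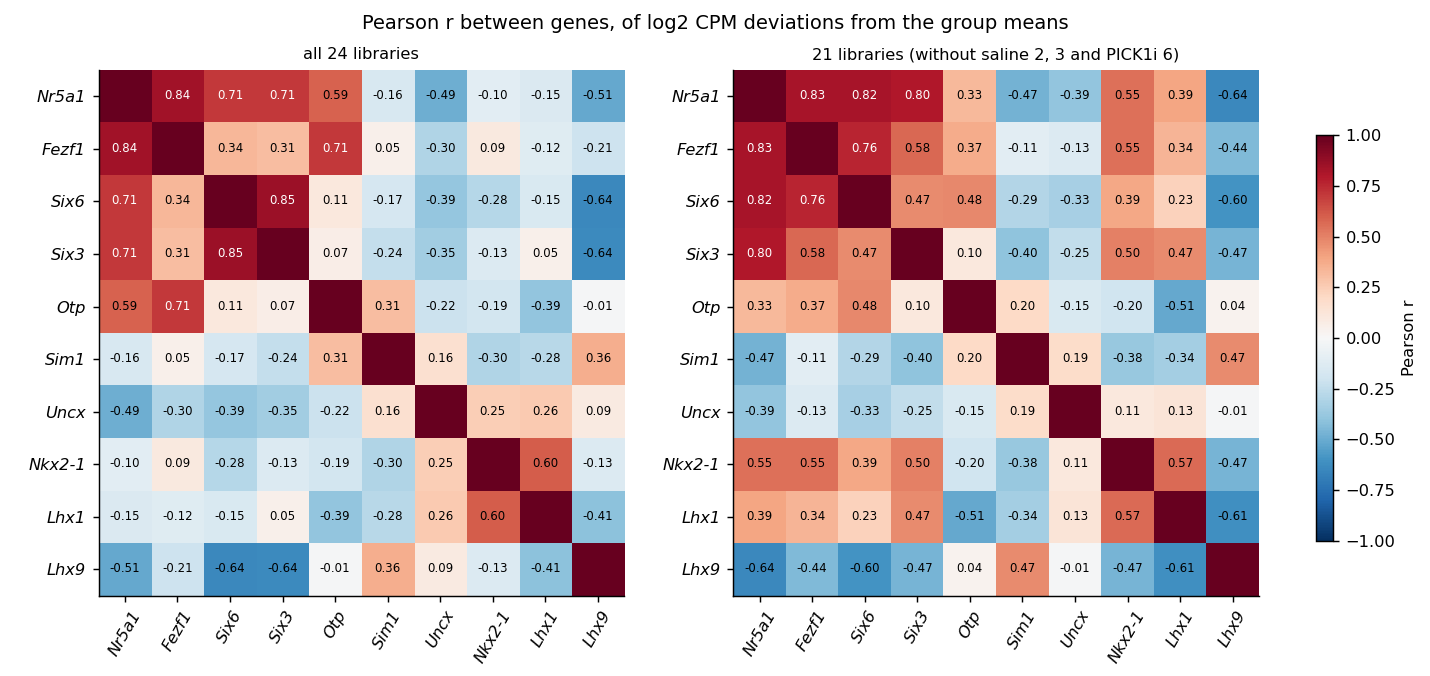
Pearson r between the genes across all 24 libraries (left) and the 21 libraries without saline replicates 2 and 3 and PICK1i replicate 6 (right), of log2 CPM deviations from the group means. Nr5a1 and Fezf1 stayed at 0.84 and 0.83, while Six6 and Six3 dropped to 0.47 over 21 libraries, against 0.85 over 24.

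Summed marker lists ran with some of the genes in the same measure. Nr5a1 gave r = 0.83 and Fezf1 r = 0.82 to the tanycyte list over 24 libraries, and 0.82 and 0.77 over 21. To the arcuate list Nr5a1 gave 0.63 over 24 and 0.89 over 21. To a list of 8 ventromedial markers Nr5a1 gave 0.62 over 24 and 0.56 over 21, and Fezf1 0.22 and 0.43. Six6 gave 0.94 and 0.64 to the ventromedial list and -0.90 and -0.69 to the pan-neuronal list. Its values to the anterior pituitary list were 0.71 over 24 and 0.06 over 21. Most of the ventromedial sum was Dlk1, at 996 of 1186 CPM in saline replicate 2 and 886 of 1083 in saline replicate 3. The values of Six6, Nr5a1 and Fezf1 to that list are therefore mainly those to 1 gene, and do not measure ventromedial tissue. Otp followed the paraventricular and supraoptic list at 0.72 and 0.49, whereas Sim1 did not, at 0.09 and -0.04. Sim1 gave 0.29 and 0.72 to the pan-neuronal list and 0.64 and 0.62 to a list of 6 thalamic markers. Most of the thalamic sum was Slc17a6, at 248 of 303 CPM in PSD-95i replicate 1. That list therefore mainly measured 1 gene, and its r is not a measure of thalamic tissue. Uncx, Nkx2-1 and Lhx1 gave 0.52, 0.50 and 0.52 to the mammillary and posterior list over 24 libraries and 0.47, 0.46 and 0.47 over 21. Nkx2-1 also gave 0.50 and 0.68 to the arcuate list and 0.23 and 0.66 to the tanycyte list. Lhx1 gave 0.35 and 0.52 to the arcuate list and 0.35 and 0.50 to a list of 6 suprachiasmatic markers. Most of the suprachiasmatic sum was Zfhx3, at 139 of 195 CPM in PSD-95i replicate 1, so its r is mainly that to 1 gene. Lhx9 gave 0.53 and 0.47 to the lateral hypothalamic list, but also 0.55 and 0.62 to the pan-neuronal list. To the cortical and hippocampal list it gave 0.49 and 0.52, and to the arcuate list -0.56 and -0.78.

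The genes most like each of the 10 were found among 13818 genes by the same r over 24 libraries. The closest to Uncx reached only 0.68 to 0.71 (Frmd7, Kif26a, Cntn5, Mllt6 and Tuba8), and held at 0.64 to 0.76 over 21. Six6 was matched far more closely, at 0.94 to 0.95, by Pomc, Gpc4, Tbx19, Fam92b and Adcy6, but these lay at 0.61 to 0.73 over 21 libraries. Six3 was closest to Gpr179, Hdac1, Pbxip1, Pomc and Celf3, at 0.88 to 0.89, and at 0.66 to 0.80 over 21. Both lists therefore depended on the libraries that stood apart. Nr5a1 was closest to Nr0b1, Rax, Fndc3c1, Rtl1 and Cybrd1, at 0.90 to 0.92, with 0.60 to 0.79 over 21. Fezf1 was closest to Fndc9, Esyt3, Amigo2, Hmcn2 and Dnah1, at 0.90 to 0.95, with 0.76 to 0.89 over 21, and Fndc9 remained its closest gene. Otp had Vwa5b1, Pigs, Hydin, Dnah1 and Arxes1 at 0.84 to 0.86, but 0.30 to 0.74 over 21. The list of Sim1 kept its level: Lpgat1, Peg13, Dnajb14, Ppargc1a and Olfm3 lay at 0.82 to 0.85 over 24 libraries and 0.82 to 0.89 over 21. Nkx2-1 was closest to Acadm, Cnih3, Wif1, Mical2 and Tmem145 (0.68 to 0.81), Lhx1 to Mypn, Grm2, Fxyd5, Col6a3 and Rprm (0.71 to 0.75), and Lhx9 to Hs3st2, Tacr1, Npas1 and Asic2 (0.77 to 0.79).

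Of 38 other hypothalamic transcription factor genes, 37 were tested. For PSD-95i against saline none passed, and the smallest p were those of Lhx5 (0.34 ± 0.13), Nkx2-4 (0.43 ± 0.17) and Foxb1 (0.65 ± 0.29), with adjusted p of 0.379, 0.401 and 0.432. For PSD-95i against PICK1i none passed either, with Arnt2 at 0.27 ± 0.093, Nr0b1 at 0.70 ± 0.31 and Meis2 at -0.96 ± 0.43, and adjusted p of 0.0886, 0.171 and 0.174. For PICK1i against saline 2 of the 37 were higher and none lower, where 1434 of all 15667 tested genes (9.15%) were called, so the list's share was below that of all genes. The 2 were Dlx6 (0.41 ± 0.11, adjusted p = 0.0278) and Dlx5 (0.42 ± 0.13, adjusted p = 0.0420), neighbouring homeodomain genes of forebrain GABA neurons. Dlx6 lies opposite the antisense gene Dlx6os1, so its reads are uncertain as for Six3. Both calls were lost without the 3 libraries, and 1 gene of the list was called without the filter on low counts. The list's median was 0.13 in that comparison, against -0.0092 over all tested genes.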

How the data were processed

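Poly(A) RNA of whole hypothalamus was sequenced as 52-base paired reads from a stranded kit, per the labels' protocols. The gene and transcript tables hold an estimated count per feature and library, as the authors deposited it, not normalised. The tools named in the submitters' processing notes are bcl2fastq 2.20.0, STAR and Salmon with GRCm38, and they do not mention strand. Whole values, within 0.001, made up 94.3% of the gene table.

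Counts were rounded, and filterByExpr (minimum count 10) kept 15667 genes with 99.3% of counts, and all 10 genes passed. They were scaled by TMM and tested with the quasi-likelihood test of edgeR 4.0.16 (R 4.3.3) in 1 fit of 24 libraries, two-sided, with 21 residual degrees of freedom and Benjamini-Hochberg adjustment over all genes tested. A call is an adjusted p under 0.05. The biological coefficient of variation was 14.4%, and intervals and errors cover spread between libraries only. CPM values are TMM-scaled, and log2 CPM for correlations used a prior count of 2. TPM was computed from transcript counts and lengths in GENCODE M21. DESeq2 1.42.0 and the other settings of the closing section are alternatives. The procedure was tested on simulated data.

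Groups come from the labels. The 10 genes and all lists were chosen with earlier results of these data known. For each gene, the 5 genes of highest r were named, leaving out genes under a mean of 1 CPM and clone or model names (1 gene is not reported here), and of the other transcription factors those past the threshold or, with none, the 3 of smallest p. The transcript table was used only for shares and TPM.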

Additional observations from a re-analysis of the deposited data

Results flagged for a closer look

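Each gene was looked at in each group of 8 libraries, 30 groups in all, for a library whose gap to its nearest neighbour was large against the range of the group (over Dixon's 95% critical value). Chance flags about 1 in 20 such groups, and 4 were flagged, all of them PICK1i replicate 6 at the low end. Nr5a1 stood at 2.66 CPM there, and at 15.1 to 28.5 CPM in the other 7 PICK1i libraries. Fezf1 stood at 10.2 CPM, with the other 7 at 26.2 to 37.1. Six6 stood at 5.76 CPM, with the other 7 at 14.3 to 24.6. Otp stood at 38.6 CPM, with the other 7 at 67.1 to 92.3. The 4 flags came from 1 library and from genes that vary together, so they are not separate events to set against 1 in 20. The rule also misses 2 libraries that lie together, such as saline replicates 2 and 3 in Six6 (92.9 and 95.9 CPM).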

How the results depend on the processing

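For PSD-95i against saline and against PICK1i, 0 of the 10 genes were called under RLE size factors, no filter, DESeq2, the replicate block, only the groups compared, library number as a covariate (chosen after seeing the data) and each set of libraries left out. Over all genes, PSD-95i against PICK1i gave 1208 calls of 15820 without saline replicates 2 and 3, and 1260 of 15667 by DESeq2. For PICK1i against saline, 2 of the 10 were called, among 1434 of all 15667 genes. The count became 1 with the replicate block, among 1127 of all genes. It became 0 with only the 2 groups compared, where 0 of 15287 genes were called. Without the 3 libraries it was also 0, where 3 of 15796 genes were called. It was 0 as well without saline replicates 2 and 3, or without PICK1i replicates 1, 2, 5 and 6. Leaving out 1 library at a time gave 1 to 4. No count over all genes is set beside these last settings. In the settings with such a count, calls over all genes moved too, so nothing is read about the 10. The cause was not tested. Of the other transcription factors, 2 were called there, 1 without the filter and 0 without the 3 libraries.

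Of 990 alternative fold changes, 53 changed sign, 11 of them by more than their SE. Six3 against saline turned to 0.046 for PSD-95i and 0.054 for PICK1i without saline replicates 2 and 3, and to 0.047 and 0.11 without the 3 libraries, where Nr5a1 for PICK1i against saline turned to 0.016. Without PICK1i replicates 1, 2, 5 and 6, PSD-95i against PICK1i turned to -0.18 for Sim1, -0.016 for Otp and 0.21 for Lhx1, and Otp for PICK1i against saline to 0.065. With library number as a covariate, Nr5a1 turned to 0.11 for PSD-95i against saline and Six3 to 0.19 for PSD-95i against PICK1i. None of the 29 sign changes from leaving out 1 library exceeded the SE. The lowest values with 1 library left out were -0.28 for PSD-95i and -0.27 for PICK1i in Six3 (without saline replicate 7) and -0.38 for PICK1i in Nr5a1 (without saline replicate 5), all against saline. Six6 for PICK1i against saline moved to -0.26 and -0.15 without saline replicates 2 and 3 and without the 3 libraries. Of 50 likenesses, 21 moved without the 3 libraries.

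Replicate numbers did not pair the libraries: over 24 same-numbered pairs r of deviations was -0.19 to 0.15, 5 were over 0.1, and 1 library correlated best with its own number. With the replicate block Uncx was at 0.61 for PSD-95i against saline (adjusted p = 0.431). Lhx9, with 5 to 80 counts per library, is the gene whose precision depth limits most.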
